A study of Mus musculus with 45 samples.

Results

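The 18 CT26 tumours of experiment T2215 whose hosts received an antibody against TIGIT were compared with the 9 tumours whose hosts received none, 27 of the 45 tumours of the series. Tumours were assigned by the treatment that the labels give them, and no measured value entered that assignment. The gene lists and tests were chosen with earlier results of these data known. CT26 is a colon carcinoma line of BALB/c mice. It was grown under the skin of BALB/c mice in which human PD-1 and human TIGIT had been knocked in, so the host's lymphocytes carried the human receptors while the tumour cells carried the mouse genome. The 18 tumours came from 6 groups of 3: HLX53, tiragolumab, serplulimab with HLX53, serplulimab with tiragolumab, pembrolizumab with HLX53 and pembrolizumab with tiragolumab. The 9 tumours came from 3 groups of 3: vehicle (saline), serplulimab and pembrolizumab. HLX53 and tiragolumab bind TIGIT, serplulimab and pembrolizumab bind PD-1, and each antibody was given at 10 mg/kg. Injections were intraperitoneal, 2 a week, from day 8, when tumours measured 90 to 100 mm3. The sources used here give neither the ages of the mice nor the day of tumour collection. Each PD-1 arm (none, serplulimab, pembrolizumab) therefore held both TIGIT antibodies and its own control, and the comparison gave the 3 arms equal weight.

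TIGIT is an inhibitory receptor of activated T cells, regulatory T cells and natural killer cells. It binds PVR and, more weakly, nectin-2 on tumour and myeloid cells. CD226 binds the same ligands and stimulates the lymphocyte, CD96 also binds PVR, and an antibody against TIGIT leaves the ligands to CD226. The Fc part of such an antibody can also engage Fc gamma receptors on macrophages, neutrophils and natural killer cells. In this tumour model the lymphocyte genes come from the host, and bulk tumour RNA mixes them with the transcripts of tumour cells, myeloid cells and tissue at the tumour's edge.

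The values were FPKM (fragments scaled to transcript length and library total), deposited on a log2 scale for 47729 mouse genes. The 27 libraries listed between 12918 and 14442 genes at 0.5 FPKM or more, and their read depth is unknown. Within a group, tumours correlated at 0.893 to 0.991 over the tested genes. The leading principal component, with 47.2% of the variance, ran between −113.4 and 43.7 in tumours with a TIGIT antibody, and between −69.1 and 40.3 in tumours without. On the list of CT26 and carcinoma cell genes, Krt18, a keratin of simple epithelia, averaged 17.6 FPKM with a TIGIT antibody and 16.1 FPKM without. Lgals3 averaged 625 FPKM with a TIGIT antibody and 602 FPKM without, while Cdh1 had medians of 1.18 and 0.655 FPKM. The list's score, its mean log2(FPKM + 0.5), was highest, at 5.08, in replicate 2 of serplulimab with HLX53. That tumour had the lowest cell division score, 4.87, and the highest adipocyte score, 6.86. Whether the list tracks tumour cells was not tested. Skeletal muscle genes were near 0 in 24 of the 27 tumours and stood out in 3. Their score, the mean log2(FPKM + 0.5) of 11 muscle genes, was 3.98 in replicate 3 of pembrolizumab with tiragolumab, 2.26 in replicate 2 of serplulimab with tiragolumab and 9.61 in replicate 1 of serplulimab. The 24 others lay at or below −0.08. Adipocyte scores ran between 0.78 and 6.86 with a TIGIT antibody and between 1.21 and 6.66 without.

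Few genes separated tumours with a TIGIT antibody from tumours without one. Of 14914 genes tested, 2 passed an adjusted p of 0.05 (0.0134%; limma, Benjamini-Hochberg), both higher with a TIGIT antibody, and none was lower. The 2 are gene models without a functional name, Gm43199 and 2610021A01Rik. At an unadjusted p under 0.05 there were 987 genes (6.62%), 535 higher (3.59%) and 452 lower (3.03%). The median log2 fold change of all tested genes was 0.0134, and 54.1% were positive. In 95.3% of the genes the 95% interval of the log2 fold change lay within 1 of 0 on either side, and the median distance from the estimate to either end was 0.225. No gene had all 18 tumours with a TIGIT antibody above, or all below, the 9 without (0 of 14914, 0%). The 2 calls were not stable: each gene passed in 7 of the 27 refits that left out 1 tumour, and 0 genes passed in 19 of them.

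**Figure D1:**
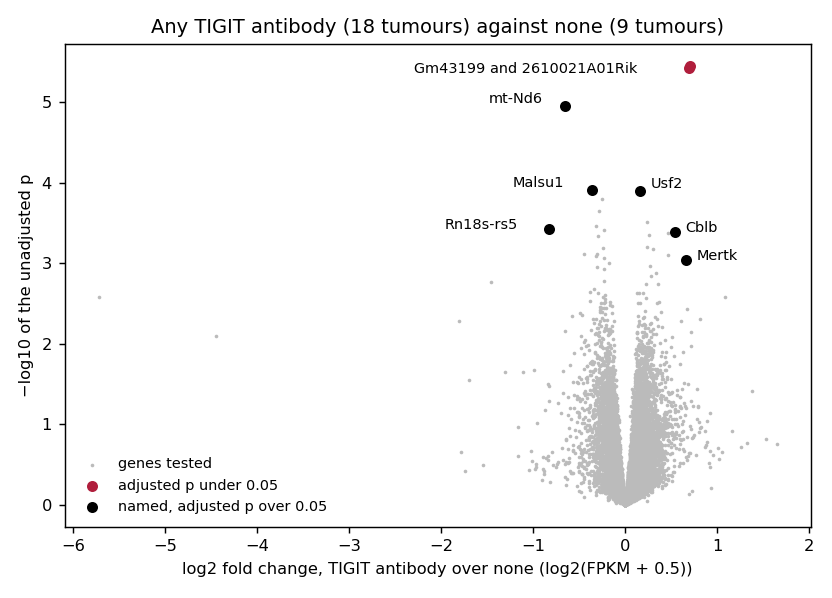
Log2 fold change of each of the 14914 tested genes, any TIGIT antibody over none (x axis, log2(FPKM + 0.5)), against −log10 of the unadjusted limma p (y axis). The 2 red points, Gm43199 and 2610021A01Rik, passed an adjusted p of 0.05, and the black points are named genes that did not; the grey points far to the left are Rps12 (−5.72) and Gm29216 (−4.45).

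Gm43199 (ENSMUSG00000105551) is annotated as a processed pseudogene of 307 bases on the plus strand, GRCm38 chr5:55584494-55584800, and overlaps no other annotated gene. A pseudogene shares sequence with its parent, so the match between them bears on how its reads can be assigned. Against all annotated mouse transcripts its best match was Hnrnpa2b1, which encodes a nuclear RNA-binding protein, with 85.5% identity over 310 aligned positions, 37 mismatches and 8 gap positions. The first 300 of its 307 bases, from the GENCODE M21 transcripts at chr5:55584494-55584793, are shown because it is the gene with the smallest p; capitals mark the 42 bases that differ from Hnrnpa2b1 or have no partner in it.
Gm43199: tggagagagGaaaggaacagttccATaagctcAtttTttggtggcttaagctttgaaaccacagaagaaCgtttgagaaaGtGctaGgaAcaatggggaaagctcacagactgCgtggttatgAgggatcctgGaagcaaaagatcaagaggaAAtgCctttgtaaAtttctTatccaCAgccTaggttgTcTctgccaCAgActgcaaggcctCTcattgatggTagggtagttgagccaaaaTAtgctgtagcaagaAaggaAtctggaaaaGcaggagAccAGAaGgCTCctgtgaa
A stretch as long as a sequencing read, 150 bases, holds between 13 and 29 such differences, depending on where it starts.

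Gm43199 was above trace values in 3 of the 9 groups, each a combination of a PD-1 and a TIGIT antibody. It had 1.71, 1.73 and 1.77 FPKM in the tumours given pembrolizumab with tiragolumab, 0.751, 0.162 and 0.875 FPKM with pembrolizumab and HLX53, and 0.943, 0.203 and 0.552 FPKM with serplulimab and tiragolumab. The other 9 tumours with a TIGIT antibody and the 9 without were all listed at or below 1.71e-05 FPKM. The gene therefore separated 3 combinations from everything else, and not the 18 tumours from the 9: serplulimab with HLX53 and both TIGIT antibodies alone stayed at trace values. The labels name no library batch and no host subline, so whether these 3 groups share one was not tested, for this gene or the next. Its log2 fold change was 0.71 ± 0.11 (SE, limma adjusted p = 0.0279), on a scale where 0.5 FPKM was added to each value. Gm43199 met the filter for testing, 0.5 FPKM or more in at least 3 libraries, only through these 3 groups. In all other tumours the added 0.5 FPKM left almost no spread, and the SE pools that floor with the spread of the 3 groups. The same floor enters its values in the other comparisons below. Hnrnpa2b1, the look-alike, averaged 470 ± 57.5 FPKM in the 18 tumours with a TIGIT antibody and 493 ± 69.2 FPKM in the 9 without (SD), with a log2 fold change of −0.07 (adjusted p = 0.863).

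2610021A01Rik (ENSMUSG00000091474; protein coding; plus strand, GRCm38 chr7:41599230-41628533, no overlapping gene) followed the same 3 groups. It had 22.7, 18 and 24.9 FPKM with pembrolizumab and tiragolumab, 10.8, 13.7 and 13.8 FPKM with pembrolizumab and HLX53, and 13.6, 12.2 and 14.7 FPKM with serplulimab and tiragolumab. Serplulimab with HLX53 gave 5.63, 4.49 and 7.57 FPKM, HLX53 alone 7.65, 5.84 and 8.48 FPKM, and tiragolumab alone 9.08, 6.98 and 8.4 FPKM. Without a TIGIT antibody it had 7.63, 6.69 and 6.14 FPKM with vehicle, 5.51, 7.16 and 3.05 FPKM with serplulimab, and 8.12, 6.71 and 7.14 FPKM with pembrolizumab. All 9 tumours of the 3 combinations lay above all 18 others, and the remaining 9 tumours with a TIGIT antibody overlapped with the controls. Its log2 fold change was 0.69 ± 0.11 (SE; adjusted p = 0.0279). Its longest transcript, of 4004 bases, best matched that of the zinc finger gene Zfp141, at 89.6% identity over 2412 positions; Zfp141 averaged 5.44 ± 1.0 FPKM with a TIGIT antibody and 5.20 ± 1.24 FPKM without (SD). Searched after these values were seen, exactly these 2 of the 14914 genes had all 9 tumours of those 3 combinations above the other 18, and 0 had them below. Gm43199 was among the genes tested only through those 3 combinations.

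The other experiment, T2106, showed no such values. There Gm43199 lay between 5.41e-06 and 1.62e-05 FPKM in all 18 tumours and was not tested, and 2610021A01Rik lay between 3.45 and 8.00 FPKM. The 3 T2106 tumours given pembrolizumab with tiragolumab had 6.91, 7.91 and 7.91 FPKM of 2610021A01Rik, against 8.00, 7.89 and 7.83 FPKM with vehicle.

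mt-Nd6, which encodes a subunit of respiratory complex I and lies on the other strand of mitochondrial DNA from the remaining protein genes, came next and did not pass (log2 fold change −0.66 ± 0.11 SE, adjusted p = 0.0555). It passed with the libraries centred on their medians (−0.689, adjusted p = 0.0381), and in 5 of the 27 refits that left out 1 tumour. Its lowest, median and highest values were 375, 648 and 997 FPKM in the 18 tumours with a TIGIT antibody, and 773, 915 and 1320 FPKM in the 9 without. With a TIGIT antibody 16 of the 18 tumours lay below the lowest control. The differences were −0.52 without a PD-1 antibody, −0.67 beside serplulimab and −0.78 beside pembrolizumab. The 12 other mitochondrial genes tested had log2 fold changes between −0.33 and 0.16, and 2 of them were lower at an unadjusted p under 0.05, beside a background of 3.03%: mt-Nd2 (−0.33), another complex I subunit, and mt-Atp6 (−0.28), a subunit of the ATP synthase. mt-Nd6 overlaps mt-Nd5 on the opposite strand (chrM:13552-14070), and no source used here gives the strand setting of the counting. In T2106, HLX53 against no TIGIT antibody gave mt-Nd6 a log2 fold change of −0.08 (adjusted p = 0.856).

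**Figure D2:**
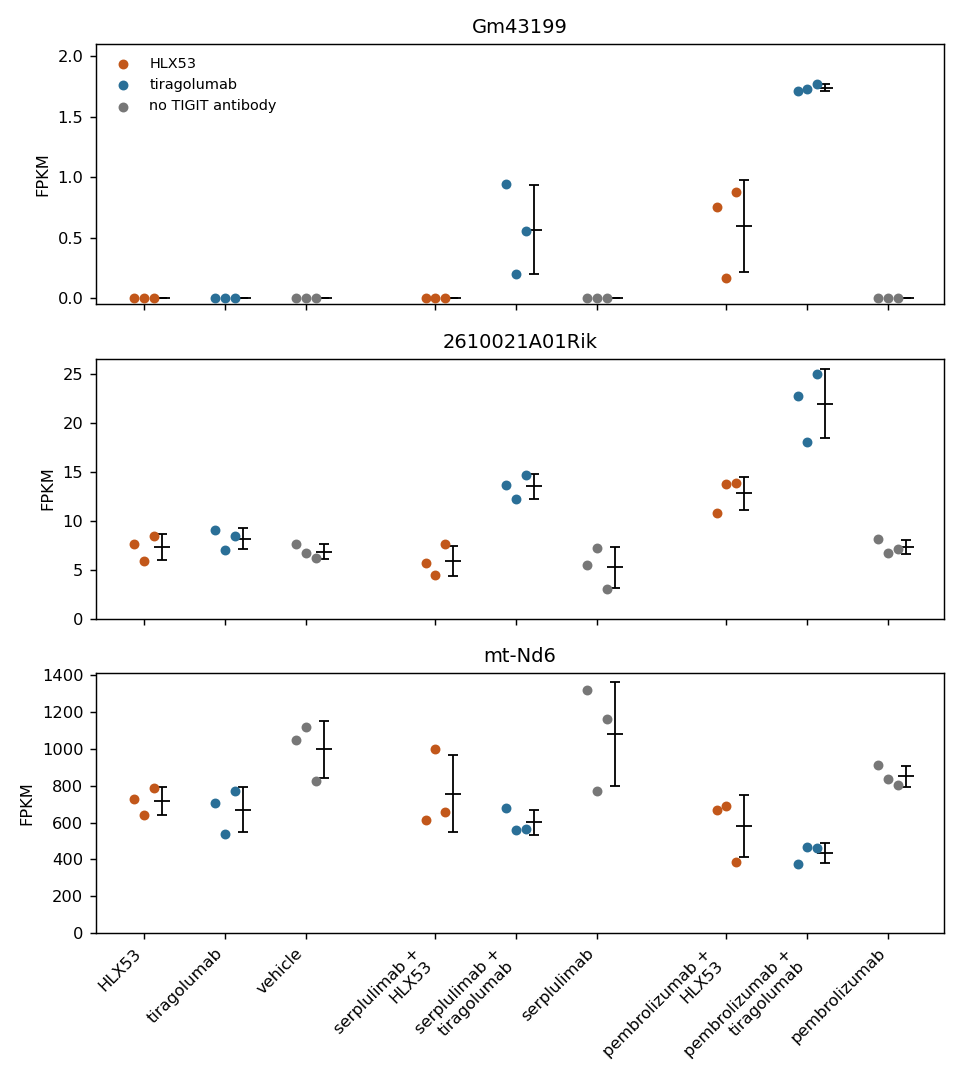
FPKM of Gm43199, 2610021A01Rik and mt-Nd6 (y axes) in each tumour of the 9 groups, by PD-1 arm (none, serplulimab, pembrolizumab; x axis). Points are single tumours, and bars give the group mean and SD (n = 3). Gm43199 and 2610021A01Rik are high in serplulimab with tiragolumab and in both pembrolizumab combinations, and mt-Nd6 lies between 375 and 997 FPKM with a TIGIT antibody and between 773 and 1320 FPKM without.

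No other gene passed. By the naming rule, the 8 genes of smallest p in each direction are given as values. Cblb encodes a ubiquitin ligase that restrains T cell activation. Its lowest, median and highest values were 3.78, 6.30 and 11.1 FPKM in tumours with a TIGIT antibody and 3.44, 3.88 and 6.17 FPKM in tumours without (log2 fold change 0.54, interval 0.27 to 0.80, adjusted p = 0.453). Mertk, a receptor by which macrophages take up dying cells, had 3.44, 6.66 and 19.8 FPKM with a TIGIT antibody and 3.47, 4.24 and 5.68 FPKM without (0.67, interval 0.31 to 1.02, adjusted p = 0.562). For Mertk, 13 of the 18 tumours lay above the highest control and 1 lay below the lowest. In T2106 the Mertk difference between HLX53 and no TIGIT antibody was 0.69 ± 0.33 (SE; adjusted p = 0.251). Of the other higher genes named by this rule, Cblb gave 0.27 there, Atp2c1 0.09, Slc35e3 0.07 and Usf2 0.03. Gosr1 (−0.11), Hspa8 (−0.23) and Banp (−0.42) were negative in T2106, and none of these genes passed.

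Usf2, a transcription factor of the basic helix-loop-helix family, had a small and even difference. It had 69.2, 74.3 and 82.4 FPKM (lowest, median, highest) with a TIGIT antibody and 60.0, 66.7 and 73.4 FPKM without, a log2 fold change of 0.16 (adjusted p = 0.377), and all 18 tumours lay above the median of the controls. Hspa8, the constitutive HSP70 chaperone, had 1450, 1760 and 2290 FPKM with a TIGIT antibody and 1050, 1510 and 1590 FPKM without (0.30, adjusted p = 0.547). Slc35e3, Banp, Atp2c1 (a Golgi calcium and manganese pump) and Gosr1 (a Golgi SNARE) lay between 0.24 and 0.47 on the log2 scale. In the other direction, Malsu1 and Mrps28, an assembly factor and a protein of the mitochondrial ribosome, had −0.36 and −0.29. Eid2b, Zswim7, Deb1 and Rp9 lay between −0.32 and −0.23, and Rn18s-rs5, a sequence related to 18S ribosomal RNA, had −0.82; adjusted p-values of these 7 were 0.377 to 0.453. Rn18s-rs5 had 0.635 to 4.77 FPKM with a TIGIT antibody and 2.12 to 10.6 FPKM without, so the groups overlapped.

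No gene of the TIGIT pathway itself passed the test between tumours with a TIGIT antibody and tumours without. Of the 8 tested members of the receptor family and its ligands, 1 was higher at an unadjusted p under 0.05; the background in that direction was 3.59%. Mouse Tigit had 2.77, 12.9 and 17.2 FPKM (lowest, median, highest) with a TIGIT antibody and 4.86, 14.1 and 16.4 FPKM without. The groups overlapped throughout, and the log2 fold change was −0.05 (interval −0.50 to 0.40, adjusted p = 0.965). These reads were assigned to the mouse gene, and no source used here says how much of it the knocked-in allele retains. Mouse Tigit did not follow the T cell gene Cd3e. Tigit had medians of 9.97 FPKM in the HLX53 tumours and 14 FPKM in the tiragolumab tumours, where Cd3e had 2.33 and 0.56 FPKM. Which cells carried the mouse Tigit transcripts was not tested. Pvr, the main ligand, had 24.5, 59.1 and 81.7 FPKM with a TIGIT antibody and 31.6, 62.6 and 92.0 FPKM without (−0.03, interval −0.39 to 0.33). Nectin-2, listed as Pvrl2, had 12.7, 15.8 and 22.9 FPKM with a TIGIT antibody and 13.4, 15.7 and 17.6 FPKM without (0.09, interval −0.08 to 0.26). For these ligands a change of 2-fold, 1 on the log2 scale, lies outside the interval.

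The co-receptors were low and more variable. Cd226, the stimulating counterpart of TIGIT, had 0.152, 0.966 and 3.99 FPKM with a TIGIT antibody and 0.0848, 0.609 and 1.45 FPKM without (0.51, interval −0.08 to 1.11, adjusted p = 0.754). Cd96 had 0.167, 0.836 and 2.90 FPKM with a TIGIT antibody and 0.0697, 0.869 and 1.97 FPKM without (0.17, interval −0.38 to 0.72). The list member with an unadjusted p under 0.05 was Pvrl1, nectin-1, at 1.67 to 5.35 FPKM with a TIGIT antibody and 1.55 to 3.73 FPKM without (0.29, adjusted p = 0.747).

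**Figure D3:**
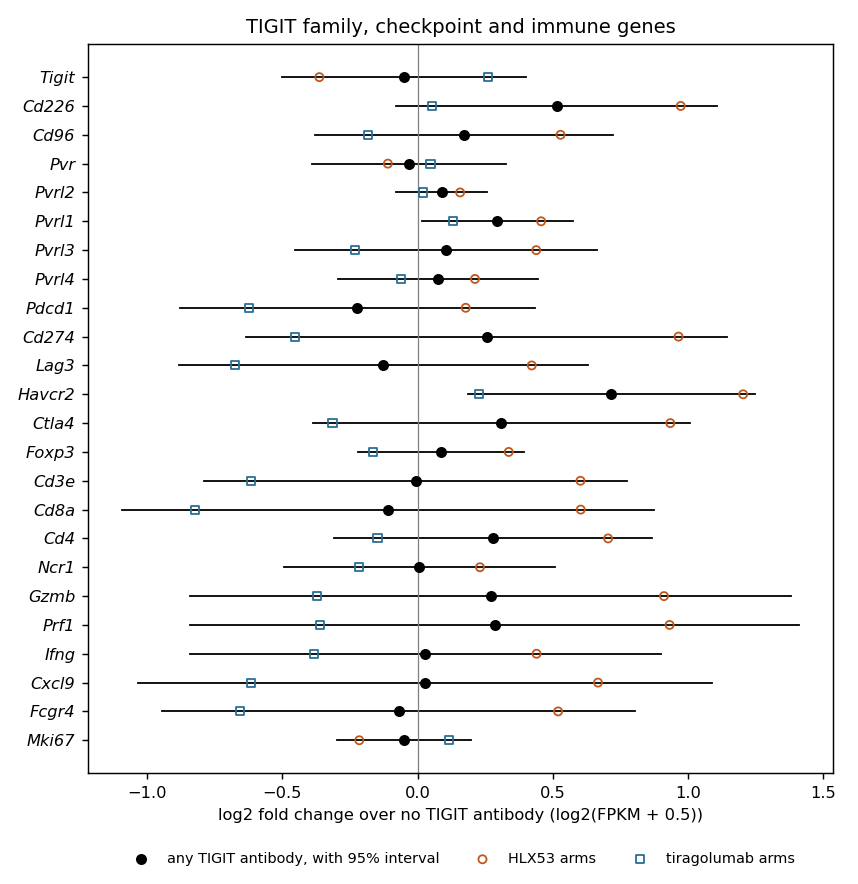
Log2 fold change over no TIGIT antibody (x axis, log2(FPKM + 0.5)) of the TIGIT family and a panel of checkpoint and immune genes (y axis). Black points with lines give any TIGIT antibody with its 95% interval, open circles the HLX53 arms and open squares the tiragolumab arms. Intervals of 22 of the 24 genes include 0; Pvrl1 and Havcr2 are the exceptions.

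Among checkpoint genes, none of 14 passed and 2 were higher at an unadjusted p under 0.05, Havcr2 and Tnfrsf14, beside a background of 3.59%. Havcr2 encodes TIM-3, an inhibitory receptor of exhausted T cells that myeloid cells also carry. Its lowest, median and highest values were 2.60, 7.78 and 17.9 FPKM with a TIGIT antibody and 1.89, 4.63 and 6.68 FPKM without (0.72, interval 0.19 to 1.25, adjusted p = 0.747). With a TIGIT antibody 10 of the 18 tumours lay above the highest control. The mouse Pdcd1 gene had 0.136 to 2.38 FPKM with a TIGIT antibody and 0.134 to 4.72 FPKM without (−0.22, interval −0.88 to 0.44). Cd274, the PD-1 ligand PD-L1, had 3.99 to 75.6 FPKM with a TIGIT antibody and 3.6 to 33.8 FPKM without (0.26, interval −0.64 to 1.15). For Cd274 the interval still holds a change of 2-fold in the upward direction.

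Genes of lymphocytes and their products spread widely in both sets of tumours. Cd3e, a chain of the T cell receptor complex, had 0.314, 1.78 and 6.65 FPKM (lowest, median, highest) with a TIGIT antibody and 0.212, 1.45 and 8.24 FPKM without (−0.01, interval −0.79 to 0.78). Cd8a had 0.205 to 8.69 FPKM with a TIGIT antibody and 0.0909 to 11.9 FPKM without (−0.11, interval −1.09 to 0.88). Of 21 T cell genes, none passed, 0 had an unadjusted p under 0.05, and the median log2 fold change was 0.09, beside 0.0134 over all genes. Bulk RNA cannot tell fewer cells of a type from less RNA per cell. Of 20 cytotoxic effector genes none passed and 0 had an unadjusted p under 0.05 (median 0.28). Gzmb, granzyme B, had 7.63 to 254 FPKM with a TIGIT antibody and 3.52 to 99.9 FPKM without (0.27, interval −0.84 to 1.38). Perforin (Prf1), interferon gamma (Ifng) and the natural killer receptor Ncr1 gave 0.28, 0.03 and 0.01, with intervals as wide as −0.84 to 1.41. Intervals of 9 of the 20 effector genes, and of 16 of the 21 T cell genes, lay within 1 of 0.

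Target genes of interferon gamma and antigen presentation genes showed no called difference either. Of 26 interferon gamma response genes 5 were positive and 21 negative (median −0.12), and none had an unadjusted p under 0.05. Cxcl9, a chemokine that attracts T cells, had 3.48, 72.2 and 197 FPKM with a TIGIT antibody and 4.02, 72.2 and 116 FPKM without (0.03, interval −1.04 to 1.09). MHC class I genes had a median of −0.01 (8 positive and 8 negative of 16) and MHC class II genes a median of 0.17 (9 positive and 1 negative of 10). Of 10 genes of regulatory T cells, which carry TIGIT, 6 were positive and 4 negative (median 0.03), and Foxp3, their defining transcription factor, gave 0.09 (interval −0.22 to 0.39).

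Dendritic cells were the list with the most members at an unadjusted p under 0.05, 4 of 16, all higher, beside a background of 3.59%; none passed the adjusted test. Ccl22, a chemokine of mature dendritic cells and macrophages, had 0.852, 2.81 and 5.37 FPKM with a TIGIT antibody and 0.740, 1.61 and 3.29 FPKM without (0.67, interval 0.24 to 1.10, adjusted p = 0.747). Of the 18 tumours with a TIGIT antibody 8 lay above the highest control. Ccl17, a chemokine that binds the same receptor, had 0.361 to 4.61 FPKM with a TIGIT antibody and 0.187 to 2.02 FPKM without (0.62). Ccr7, the receptor that guides dendritic cells to lymph nodes, gave 0.48, and the co-stimulatory ligand Cd80 gave 0.19. Genes of the same list that mark type 1 dendritic cells, Xcr1 and Clec9a, gave −0.04 and 0.12. Signs are given by PD-1 arm, and whether the list differed between arms was not tested. Without a PD-1 antibody 12 of the 16 genes were negative (median −0.18), while 15 were positive beside serplulimab and 14 beside pembrolizumab. Over all tested genes 44%, 59.6% and 47.9% were positive without a PD-1 antibody, beside serplulimab and beside pembrolizumab. Ccl22 gave −0.24, 1.34 and 0.91 in these 3 arms. The limma F test of a difference over the arms gave Ccl22 an unadjusted p of 0.0139 and called 0 genes. The naive and memory T cell list also holds Ccr7, as its only member with an unadjusted p under 0.05.

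Myeloid lists were mostly positive with none called. All 18 macrophage and monocyte genes were positive (median 0.22, none with an unadjusted p under 0.05). In the HLX53 arms 17 were positive (median 0.48), and in the tiragolumab arms 10 were positive and 8 negative (median 0.01). Without a PD-1 antibody 13 of the 18 were negative (median −0.16). Arg1, arginase 1, averaged 169 FPKM with a TIGIT antibody and 107 FPKM without (0.61). Of 14 neutrophil genes 11 were positive (median 0.37). Mmp9, a matrix protease of neutrophils and macrophages, had a median of 6.13 FPKM and a highest value of 358 FPKM with a TIGIT antibody, and a median of 4.92 FPKM and a highest value of 10.6 FPKM without. The highest Mmp9 values, 358, 247 and 62.6 FPKM, came from HLX53 combinations. Among Fc gamma receptor genes 5 of 6 were positive and none had an unadjusted p under 0.05 (median 0.17). Fcgr4, which binds antibody on macrophages and neutrophils, gave −0.07 (interval −0.94 to 0.81).

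Genes of cell division went the other way, with narrow intervals. All 23 were negative (−0.27 to −0.05, median −0.16), all 23 intervals lay within 1 of 0, and none passed; 1 of the 23, Cenpa, a histone of the centromere, had an unadjusted p under 0.05 (−0.27, adjusted p = 0.747), near the background of 3.03%. By PD-1 arm, all 23 were negative without a PD-1 antibody (median −0.245) and beside pembrolizumab (median −0.205). Beside serplulimab 11 were positive and 12 negative (median −0.012), and in the tiragolumab arms 15 of the 23 were positive. Mki67, the proliferation marker, had 16.4, 27.8 and 36.3 FPKM with a TIGIT antibody and 16.9, 29.8 and 37.5 FPKM without (−0.05, interval −0.30 to 0.20). Of the 15 genes on the list of CT26 and carcinoma cells, which may not track tumour cells, 11 were positive and 4 negative (median 0.20). Of them 1 was lower at an unadjusted p under 0.05, beside a background of 3.03%. That gene was Vim, vimentin, which had 1640, 2680 and 2910 FPKM with a TIGIT antibody and 2450, 2910 and 4030 FPKM without (−0.23, adjusted p = 0.747). All 11 skeletal muscle genes were negative (median −0.89) and 12 of 13 adipocyte genes were (median −0.23), none with an unadjusted p under 0.05. The muscle medians were −0.08 without a PD-1 antibody, −3.19 beside serplulimab and 0.63 beside pembrolizumab. The highest muscle score, 9.61, came from a control, replicate 1 of serplulimab. Without the 3 muscle-bearing tumours, an alternative added after the data were seen, 1 gene passed in place of 2. That gene was Gm43199 (0.75, adjusted p = 0.033), while 2610021A01Rik gave 0.71 (adjusted p = 0.109). Several immune genes then had the opposite sign without passing the test, among them Gzmb (−0.305), Cxcl9 (−0.636) and Cd274 (−0.171).

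The value for any TIGIT antibody is an average over HLX53 and tiragolumab. The HLX53 arms (9 tumours) and the tiragolumab arms (9 tumours) share the same 9 controls, so their values are given side by side. Against those controls the HLX53 arms called 0 genes (0%), with 2565 at an unadjusted p under 0.05 (17.2%; 7.95% higher and 9.25% lower). The tiragolumab arms called 3 (0.0201%), with 670 at an unadjusted p under 0.05 (4.49%; 3.14% higher and 1.35% lower). The 3 were Gm43199 (1.06, adjusted p = 0.000602), 2610021A01Rik (1.03, adjusted p = 0.000602) and mt-Nd6 (−0.79, adjusted p = 0.0334). In the HLX53 arms the same genes gave 0.35, 0.35 and −0.53, none past the threshold. Gm43199 was tested only through groups where it was high, and its controls lay at the floor of the added 0.5 FPKM. HLX53 arms against tiragolumab arms called 0 genes (0%) in limma, and the smallest adjusted p was 0.138; 3964 had an unadjusted p under 0.05 (26.6%; 11.1% higher with HLX53 and 15.5% lower). With array weights 4262 genes passed in that comparison, and leaving out 1 tumour gave 0 to 22, the 22 without replicate 2 of pembrolizumab with HLX53.

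For the T cell list the median log2 fold change was 0.60 in the HLX53 arms, with 21 of 21 positive, and −0.39 in the tiragolumab arms, with 21 of 21 negative. In the direct comparison all 21 were higher with HLX53 at an unadjusted p under 0.05, beside a background of 11.1%, and none passed the adjusted test. MHC class II genes gave medians of 0.93 with HLX53 and −0.53 with tiragolumab, interferon gamma response genes 0.33 and −0.62, and neutrophil genes 0.89 and −0.25. Cell division genes gave −0.35 with HLX53, where 16 of 23 were lower at an unadjusted p under 0.05 (background 9.25%), and 0.04 with tiragolumab. Adipocyte genes also gave 0.20 with HLX53 and −0.76 with tiragolumab; the part of adjacent tissue in the immune values was not tested. For Cd3e, whose pooled value lay near 0, the values were 0.60 with HLX53 and −0.62 with tiragolumab, on opposite sides of 0; for Pvrl2 they were 0.16 and 0.02. Cblb (0.73 and 0.35), Mertk (0.93 and 0.40), Usf2 (0.20 and 0.13), Hspa8 (0.34 and 0.27) and Ccl22 (0.83 and 0.51) were positive with HLX53 and with tiragolumab. These genes were named for a small p of the pooled value, which averages HLX53 and tiragolumab. Their shared sign was therefore close to fixed by that choice.

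**Figure D4:**
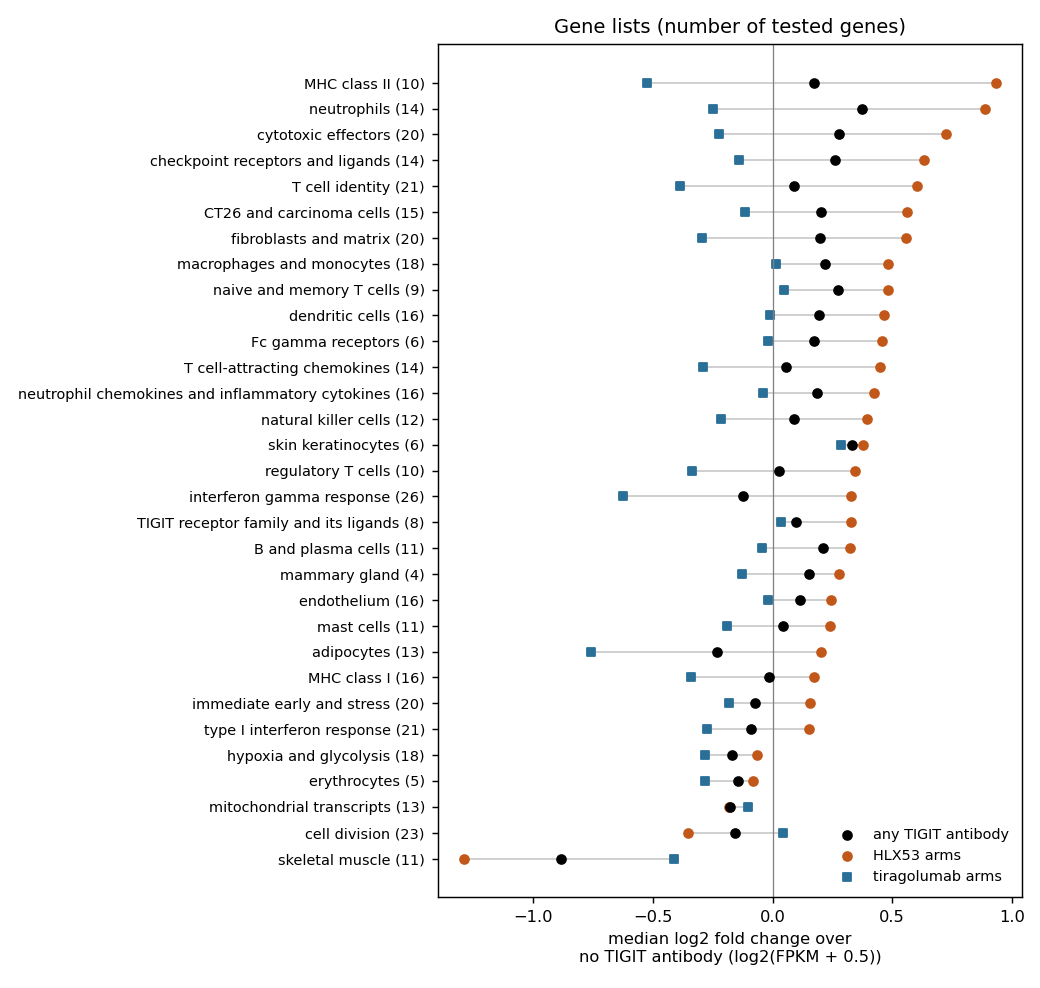
Median log2 fold change over no TIGIT antibody of the tested members of each gene list (x axis; number of genes in brackets). Black circles give any TIGIT antibody, orange circles the HLX53 arms and blue squares the tiragolumab arms. Most immune lists lie to the right of 0 with HLX53 and at or left of 0 with tiragolumab, and cell division and skeletal muscle lie lowest with HLX53. The controls include the tumour with the highest muscle score, 9.61.

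Over the 9 tumours of each antibody, the scores overlapped. The T cell score had 1.25, 1.78 and 3.26 (lowest, median, highest) in the 9 HLX53 tumours, 0.46, 0.59 and 2.28 in the 9 tiragolumab tumours, and 0.36, 1.41 and 3.13 in the 9 without. The highest tiragolumab tumour lay above the median HLX53 tumour, and the controls spanned nearly the whole range. The cell division score had 4.87, 5.58 and 6.03 with HLX53, 5.73, 5.89 and 6.22 with tiragolumab, and 5.28, 5.87 and 6.31 without.

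**Figure D5:**
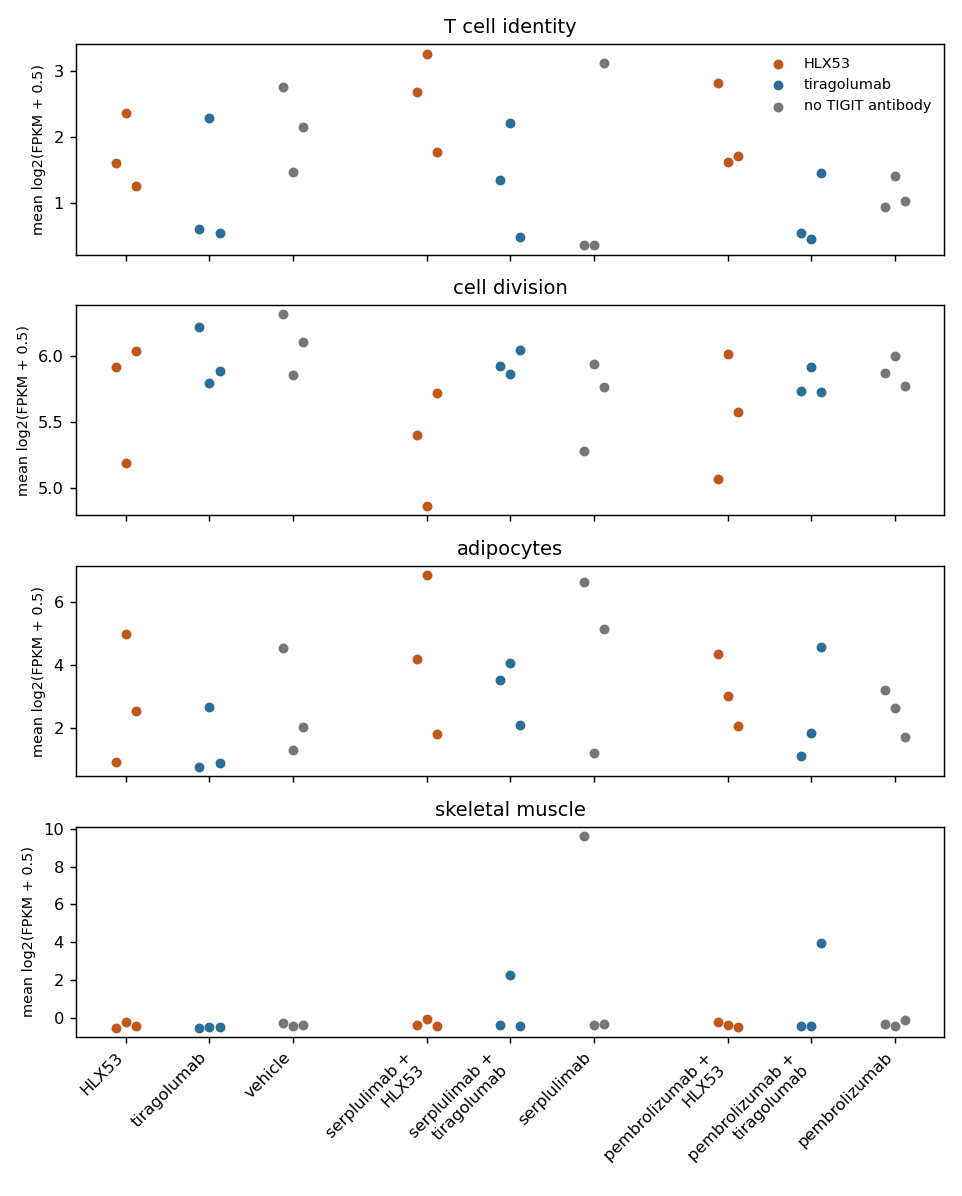
Mean log2(FPKM + 0.5) of 4 gene lists (y axes) in each tumour, by PD-1 arm and TIGIT antibody (x axis). Points are single tumours. T cell scores run between 0.36 and 3.26. HLX53 tumours overlap their controls and the tiragolumab tumours without a PD-1 antibody and beside serplulimab, and lie above both beside pembrolizumab. A muscle score above 1 occurs in 3 tumours, 1 of them given serplulimab alone.

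Within the PD-1 arms, TIGIT antibodies called 0 genes without a PD-1 antibody (0%; 127 at an unadjusted p under 0.05, 0.852%) and 0 beside serplulimab (0%; 1551, 10.4%). Beside pembrolizumab they called 1 (0.00671%; 214 at an unadjusted p under 0.05, 1.43%), Gm43199, at 1.61 ± 0.20 (SE; adjusted p = 0.000909). Gm43199 was tested only through 3 combinations, among them both pembrolizumab combinations, and its controls lay at the floor of the added 0.5 FPKM. 2610021A01Rik gave 0.16 without a PD-1 antibody, 0.77 beside serplulimab and 1.14 beside pembrolizumab (adjusted p = 0.0567). The test of whether the TIGIT antibody difference varied over the 3 arms called 0 genes (0%; 260 at an unadjusted p under 0.05, 1.74%; limma F test, smallest adjusted p = 0.51). For Gm43199 that test gave an unadjusted p of 3.42e-05 and an adjusted p of 0.51, so no difference between arms was called. T cell genes were all 21 negative without a PD-1 antibody (median −0.63) and all 21 positive beside serplulimab (median 0.66), and 17 of 21 were positive beside pembrolizumab (median 0.35). In the serplulimab arm the control group held the tumour with the highest muscle score and, in Cd3e, values between 0.212 and 8.24 FPKM. Without replicate 2 of serplulimab alone, 779 genes passed beside serplulimab in place of 0.

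HLX53 was also given in T2106, which shares no tumour with T2215. There HLX53 at 10 mg/kg, alone and with serplulimab, was compared with vehicle and serplulimab, and 3 of 15070 genes passed (0.0199%; 3063 at an unadjusted p under 0.05, 20.3%). They were Reg1, a secreted protein first known from the pancreas (1.53, adjusted p = 0.0105), Inmt, a methyltransferase of indoles (−1.24, adjusted p = 0.0114), and Gm42653 (−0.64, adjusted p = 0.0496). Leaving out 1 tumour there gave 0 to 1878 genes, the 1878 without replicate 2 of serplulimab with HLX53 at 5 mg/kg. In the HLX53 arms of T2215 they gave 0.62, −1.03 and −0.35, with adjusted p-values of 0.349, 0.229 and 0.471. Across 14646 genes tested in both experiments, the HLX53 differences of T2215 and T2106 correlated at r = 0.744, and 77.9% had the same sign; genes are not independent, and no test is attached. The T cell list had a median of 0.74 in T2106 (21 of 21 positive), MHC class II 0.87, neutrophils 1.16 and cell division −0.44 (23 of 23 negative), and 0 members of these lists passed there. Adipocyte genes had a median of 1.02 in T2106, with 13 of 13 positive, and their part in these values was not tested.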

How the data were processed

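Members, gene lists and tests were chosen with earlier results of these data known. The authors deposited log2 FPKM values, 1 table per experiment and 1 column per tumour, and only the tables' names state FPKM and the log2 scale; the read depth is unknown and no counting interval is given. Per the submitters' processing notes, FastQC, Trimmomatic, STAR and Bowtie were used and the builds hg19, mm10 and GRCh37 are named; no source used here gives versions or the program that made the FPKM. The tables were normalised separately, so each was fitted alone.

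After exponentiation, log2(FPKM + 0.5) was the tested value, which understates the change of low genes. Genes at 0.5 FPKM or more in at least 3 libraries entered limma 3.58.1 (R 4.3.3) with 1 mean per group and 18 residual degrees of freedom; the contrast was the mean of 6 groups minus the mean of 3, with eBayes and a trend, Benjamini-Hochberg adjustment over all tested genes and 0.05 as the threshold. Intervals are limma's 95% intervals. The method was tested on simulated data, with normal noise drawn separately for each gene and changes added only to genes well above the floor. That test does not cover genes at the floor or the shifts seen when 1 tumour was left out. No source used here says that the 3 tumours of a group came from separate mice, and p-values measure the spread between these samples, which may be technical.

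There were 31 gene lists with 464 members, 437 of them tested; 1 member, Pvrig, matched no gene. The rule for named genes took the 8 of smallest p in each direction, since fewer than 5 passed (leaving out gene models without a functional name, pseudogenes and antigen receptor segments), a fixed panel and up to 3 members of smallest p in each list; some are not described. Gm43199, 2610021A01Rik, Hnrnpa2b1, Zfp141, Rps12, Gm29216, Reg1, Inmt, Gm42653 and list members cited beyond the rule were named after their values were seen. Positions and the sequence come from GENCODE M21 (GRCm38); the look-alike search used BLAST 2.17.0. Alternatives were other pseudocounts and filters, median centring, array weights, eBayes without a trend, a block by replicate number, other models, and leaving out each tumour.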

Additional observations from a re-analysis of the deposited data

How the results depend on the processing

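The count of 2 genes was fragile. It was 1 with a filter of 1 FPKM or more and 5 with no filter, 3 with median centring (mt-Nd6 added), 1 with array weights (2610021A01Rik), 1 without the 3 muscle-bearing tumours, 1 (another gene, mt-Nd6) in an additive model of PD-1 arm and TIGIT antibody, and 0 with 1 term for any TIGIT antibody. It was 0 with a replicate block. The numbers do not pair the tumours: same-numbered tumours of different groups had deviations correlated at a median of −0.0385, and 4 of 27 were closest to their own number. Leaving out 1 tumour at a time gave 0 to 6 genes: 0 in 19 of 27 refits, 2 in 1 refit and 6 without serplulimab replicate 2. Across those refits Gm43199 lay between 0.668 and 0.764 and 2610021A01Rik between 0.587 and 0.772, each past the threshold in 7.

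For the other comparisons, no filter gave 5 genes (HLX53 arms), 2 (no PD-1 antibody), 2 (beside serplulimab), 6 (beside pembrolizumab), 6 (HLX53 against tiragolumab), 2 (difference over PD-1 arms) and 37 (T2106). Array weights, whose estimation did not converge in every fit, gave 2 (no PD-1 antibody), 14 (beside pembrolizumab), 4262 (HLX53 against tiragolumab), 1 (difference over arms) and 9256 (T2106). Beside pembrolizumab a pseudocount of 1, a filter of 1 FPKM and median centring each gave 2; in T2106 a pseudocount of 0.1 gave 0; beside serplulimab 1 passed without the muscle-bearing tumours. Leaving out 1 tumour gave 0 to 1 (HLX53 arms), 2 to 3 (tiragolumab arms), 0 to 779 (beside serplulimab), 1 to 2 (beside pembrolizumab), 0 to 22 (HLX53 against tiragolumab; 22 without pembrolizumab + HLX53 replicate 2, 7 without serplulimab + HLX53 replicate 3), 0 to 1 (difference over arms) and 0 to 1878 (T2106; 1878 without serplulimab + HLX53 5 mg/kg replicate 2). The cause of these shifts was not tested.

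Signs turned for genes near 0. Cd3e was 0.03 with a pseudocount of 0.1; Ncr1 was 0 with a pseudocount of 1 and −0.025 with centring, where Ifng was −0.003 and Cxcl9 −0.006; array weights gave Tigit 0.057, Pvr 0.024 and Fcgr4 0.025. Without the muscle-bearing tumours Cd96 was −0.072, Cd274 −0.171, Ncr1 −0.264, Gzmb −0.305, Prf1 −0.266, Ifng −0.438 and Cxcl9 −0.636. Leaving out 1 tumour gave Tigit −0.205 to 0.071, Pvr −0.154 to 0.051, Pdcd1 −0.403 to 0.103, Lag3 −0.336 to 0.217, Cd3e −0.24 to 0.363, Cd8a −0.39 to 0.341, Ncr1 −0.133 to 0.175, Gzmb −0.121 to 0.652, Prf1 −0.091 to 0.631, Ifng −0.256 to 0.377, Cxcl9 −0.357 to 0.382, Fcgr4 −0.324 to 0.297 and Mki67 −0.102 to 0.031.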

Other observations

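Rps12, which encodes a protein of the small ribosomal subunit, had the largest negative log2 fold change of the 14914 tested genes (−5.72 ± 1.67 SE, adjusted p = 0.747) and swung between tumours of a group. It was listed at 0.0603, 0.000869 and 705 FPKM with serplulimab and tiragolumab, at 0.104, 861 and 838 FPKM with tiragolumab, and at 611, 681 and 0.000173 FPKM with serplulimab. The pseudogene Gm43802 had 10.4, 4.27 and 13.6 FPKM with pembrolizumab and HLX53, against 0.000446, 0.393 and 0.000141 FPKM with pembrolizumab. Gm43802 overlaps the gene Gbp7 on the same strand, and which of them its reads came from was not tested. The pseudogene Gm13502 had 0.0652, 0.028 and 9.66e-05 FPKM with serplulimab and HLX53, against 0.000152, 4.37 and 3.83e-06 FPKM with serplulimab.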
